A study of Mus musculus with 10 samples.

Results

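The 3 E-protein genes Tcf3, Tcf4 and Tcf12 and the 4 Id genes Id1, Id2, Id3 and Id4 were followed through peak lists from ATAC-seq, an assay in which a transposase cuts and tags open DNA. A region belonged to a gene when a peak summit lay in the gene body or within 50 kb of it. Of the 137454 regions formed by merging the 10 lists, 142 met this rule. Peaks were found in 2 or more libraries at 113 of these, in 5 or more at 82, and in all 10 at 50.

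The libraries came from neural stem cell cultures of the subependymal zone (SEZ) of adult mice, 10 weeks old, wild type (WT) or lacking p27, the cell cycle inhibitor encoded by Cdkn1b (p27KO). Proliferating cells (PRO) were neurospheres whose medium held EGF at 20 ng/ml and FGF at 10 ng/ml, taken at 3 days in vitro by the labels, although one passage of the study names a longer time. Differentiating cultures (DIFF) were plated on Matrigel with FGF for 2 days and left without mitogens in 2% serum for the last 24 h. WT gave 3 libraries of each condition and p27KO gave 2 of each, every one from 50000 cells. The p27KO mice were kept on a C57BL/6 J background, and the sources used here do not say whether the WT cultures came from littermates. PRO and DIFF cultures therefore also differed in substrate and serum.

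E proteins are basic helix-loop-helix transcription factors. They bind short E-box sequences as dimers, most often with a tissue-specific partner of the same fold such as a proneural or Olig factor. Id proteins share the dimerization fold but lack the basic region that contacts DNA, so they hold E proteins away from DNA. Id genes are well-known targets of BMP signalling through SMAD factors, and Id1 and Id3 are associated with the maintenance of adult neural stem cells.

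All called regions of Id3 and Id2 lay at a distance from the start sites of these genes, and the DNA under their summits is shown here because the results at the Id loci turn on them. Each line gives 200 bases centred on the summit, read from the plus strand of GRCm38, 5′ to 3′. Capitals mark matches, on either strand, to the E-boxes CAGCTG and CAGGTG, to the AP-1 motif TGANTCA, and to GGCGCC, the core of a BMP-responsive SMAD element. Of the 5 Id3 windows, the first lies at chr4:136104881-136105080, the next at chr4:136110593-136110792, the third at chr4:136117121-136117320, the fourth at chr4:136135079-136135278 and the last, in an intron of E2f2, at chr4:136185433-136185632. The Id2 windows lie at chr12:25083312-25083511, downstream of the gene, and at chr12:25119422-25119621, upstream.
Id3, 38.5 kb upstream: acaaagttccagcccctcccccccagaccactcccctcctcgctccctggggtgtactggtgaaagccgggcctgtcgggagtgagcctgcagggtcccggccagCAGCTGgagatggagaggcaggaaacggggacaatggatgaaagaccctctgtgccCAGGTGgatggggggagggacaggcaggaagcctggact
Id3, 32.8 kb upstream: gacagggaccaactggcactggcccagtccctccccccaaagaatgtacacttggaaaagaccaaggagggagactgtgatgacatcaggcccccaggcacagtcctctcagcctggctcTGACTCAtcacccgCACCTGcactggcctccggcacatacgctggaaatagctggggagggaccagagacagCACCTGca
Id3, 26.3 kb upstream: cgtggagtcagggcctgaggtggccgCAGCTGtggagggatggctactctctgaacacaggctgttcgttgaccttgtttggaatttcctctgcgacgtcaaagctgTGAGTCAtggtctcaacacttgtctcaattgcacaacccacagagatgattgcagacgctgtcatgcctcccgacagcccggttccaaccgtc
Id3, 8.3 kb upstream: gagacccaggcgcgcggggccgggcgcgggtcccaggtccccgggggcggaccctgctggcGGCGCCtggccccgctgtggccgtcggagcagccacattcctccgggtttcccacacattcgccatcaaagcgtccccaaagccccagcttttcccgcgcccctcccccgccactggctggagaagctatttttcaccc
Id3, 42.0 kb downstream: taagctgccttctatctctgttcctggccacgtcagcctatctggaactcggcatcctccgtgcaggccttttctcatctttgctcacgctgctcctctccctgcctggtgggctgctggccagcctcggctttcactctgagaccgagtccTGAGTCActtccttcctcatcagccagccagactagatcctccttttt
Id2, 13.7 kb downstream: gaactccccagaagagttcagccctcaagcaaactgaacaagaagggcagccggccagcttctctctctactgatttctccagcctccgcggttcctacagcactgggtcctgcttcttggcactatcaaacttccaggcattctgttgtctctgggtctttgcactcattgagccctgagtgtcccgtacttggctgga
Id2, 22.4 kb upstream: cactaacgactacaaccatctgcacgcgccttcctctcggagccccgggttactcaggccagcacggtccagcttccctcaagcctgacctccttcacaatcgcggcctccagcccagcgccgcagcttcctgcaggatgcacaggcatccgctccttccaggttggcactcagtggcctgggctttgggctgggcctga

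Of the 5 Id3 windows, 3 hold an AP-1 match (32.8 and 26.3 kb upstream and 42.0 kb downstream), and those 38.5, 32.8 and 26.3 kb upstream hold an E-box. Neither Id2 window matched any of the 4 motifs. CACCTG is CAGGTG read on the other strand. Of the 82 tested regions of the 7 genes, CAGCTG was found in 18 windows, CAGGTG in 19, TGANTCA in 11 and GGCGCC in 16, and 1 pair of matches to different motifs overlapped. Over 70509 windows of the same length around tested summits, these motifs were found in 21.5%, 11.2%, 8.34% and 7.26%.

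Each list gives a fold enrichment per peak, that is, how many times the summit's read pileup exceeds the level expected there in the same library. The deposited lists held between 57534 and 91801 peaks, and the number of reads behind each was not part of the lists. Where a list has no peak, nothing was called at that library's depth. For tests, fold enrichments were ranked within each list and turned into normal scores, and a region absent from a list shared its lowest rank. The score of that rank was set by how many tested regions a list lacked. Its mean was -1.65 in WT PRO, -1.32 in WT DIFF, -1.8 in p27KO PRO and -1.35 in p27KO DIFF. Absence thus scored higher at DIFF than at PRO, which enlarges gains and shrinks losses where peaks were missing. A list that lacked more regions also raised the scores of the peaks it held, so changes of regions present in every library lean upward too. At the Id1 start site, the mean percentile among the fold enrichments of a list was 55.5 in WT PRO and 50.6 in WT DIFF. The change in score there was 0.05. A change is a difference of mean normal scores with its standard error (SE) and is not a fold. It was tested with limma over all 70627 regions present in 5 or more libraries, and a region was called when its Benjamini-Hochberg adjusted p was under 0.05. The labels call the replicates biological. Accessibility lost per cell and fewer accessible cells cannot be told apart in these bulk lists.

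The labels were checked first. The region over the Cdkn1b start site was listed in all 6 WT libraries and in 0 of 4 p27KO libraries, although a free-text note calls the p27KO cells WT. Of 32 regions on chromosome Y with a peak in all 6 WT libraries, 16 had none in any p27KO library, whereas among autosomal regions listed in all 6 the same held for 13 of 39006 (0.0333%). The part of chromosome Y in genotype values was not tested. All 8 stem and progenitor markers, among them Sox2, Nes and Egfr, had a peak within 3 kb of a start site in 10 of 10 libraries. Astrocyte markers had one at 4 of 4 genes in every library, microglial markers at 3 to 4 of 5 with Cx3cr1 at none, and pericyte markers at 2 to 4 of 4. Neuroblast markers had one at 2 to 4 of 4, with Dcx in 1 library and Sp8 in 8, and oligodendrocyte markers at 3 to 4 of 5, with Sox10 and Mog in 1 library each. WT DIFF replicate 3 stood apart from its group: its list held 88738 peaks, against 61783 and 57534 for replicates 1 and 2.

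Regions of the 7 genes with a peak numbered 91, 85 and 89 in the WT PRO libraries and 68, 62 and 88 in the WT DIFF libraries. They numbered 97 and 91 in p27KO PRO and 70 and 78 in p27KO DIFF. The number moved with list length, and the members made up between 0.0992% and 0.117% of every list. Tcf4, whose gene body spans 345.7 kb, contributed 52 regions, Tcf12 and Id1 20 each, Tcf3 18, Id3 14, Id2 12 and Id4 6. The nearest start site of a protein-coding gene was the gene's own for all 52 Tcf4 and 6 Id4 regions, for 17 at Tcf12, 10 at Id2, 9 at Id1, 8 at Id3 and 6 at Tcf3, and that of a neighbour for the others.

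Every one of the 7 genes had a start-site region with a peak in 10 of 10 libraries, and none of these regions was called in either genotype. For Tcf4, regions without a peak in all 10 libraries were passed over, so this presence was set by the choice. A Tcf4 region 72.4 kb from the gene start and 109 bp from an internal start was called in both genotypes, as given below. Over all genes with a tested promoter (15247), 2.35% were called lower and 2.82% higher at DIFF in WT, and 1.11% and 1.32% in p27KO. The openness of the start sites differed among the genes within the lists. Tcf3 and Id4 stood high, between percentiles 83.1 and 95.5 of the fold enrichments of a list, while Id1 lay between 44.2 and 61.8 and Id3 between 34.8 and 61.5.

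**Figure D1:**
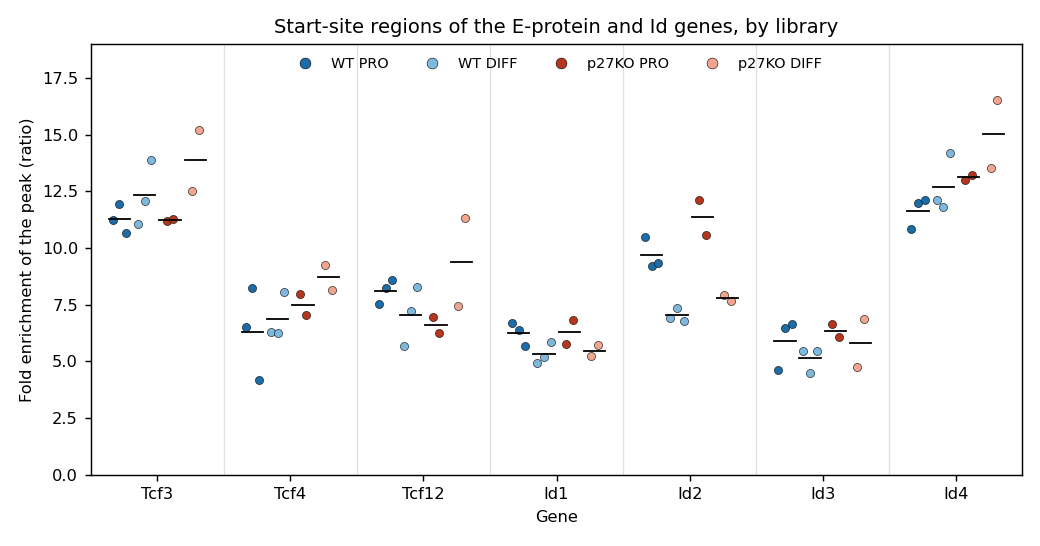
Fold enrichment (ratio) of the start-site region of each gene, 1 point per library, coloured by group, with a bar at the group mean. Points of Id2 at DIFF lie below those at PRO in both genotypes without overlap, and those of Id4 lie between 10.82 and 16.54.

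The Tcf3 start-site region (chromosome 10, 80433103 to 80434309) had fold enrichments of 11.22, 11.94 and 10.67 in WT PRO, 11.06, 12.07 and 13.89 in WT DIFF, 11.19 and 11.28 in p27KO PRO and 12.53 and 15.22 in p27KO DIFF. PRO and DIFF overlapped in WT and not in p27KO. With 2 libraries per condition in p27KO and 3 in WT, groups stay apart more easily in p27KO. Overlap, here and below, cannot be compared between genotypes. The change was 0.46 ± 0.16 in WT (limma, adjusted p = 0.0745) and 0.53 ± 0.20 in p27KO (adjusted p = 0.115).

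Tcf12 has a start-site region at the first exon (chromosome 9, 72110706 to 72112393), with fold enrichments of 7.54, 8.23 and 8.59 in WT PRO and 5.68, 7.22 and 8.29 in WT DIFF. Those of p27KO were 6.94 and 6.25 at PRO and 7.43 and 11.33 at DIFF. The groups overlapped in WT and not in p27KO. Its changes were 0.06 ± 0.19 in WT (limma, adjusted p = 0.867) and 0.66 ± 0.23 in p27KO (adjusted p = 0.0941). A second region at an internal start site, 215.5 kb into the gene, also had a peak in 10 of 10 libraries, with a change of 0.54 ± 0.19 in WT (adjusted p = 0.0677).

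Id1 and Id3 are the paralogues most often linked to stem cell maintenance. The Id1 start-site region (chromosome 2, 152735899 to 152736627) had fold enrichments of 6.69, 6.37 and 5.70 in WT PRO and 4.94, 5.2 and 5.85 in WT DIFF. In p27KO they were 5.76 and 6.82 at PRO and 5.23 and 5.71 at DIFF. The groups overlapped in WT and not in p27KO, and the rank changes were 0.05 ± 0.17 (limma, adjusted p = 0.883) and 0.01 ± 0.21 (adjusted p = 0.986). At Id3 (chromosome 4, 136143475 to 136144241) the values were 4.60, 6.49 and 6.67 in WT PRO and 5.48, 4.5 and 5.47 in WT DIFF, with a change of 0.12 ± 0.22 (adjusted p = 0.764). Those of p27KO were 6.63 and 6.06 at PRO and 4.75 and 6.87 at DIFF, again overlapping, with a change of 0.05 ± 0.27 (adjusted p = 0.938).

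At Id2 (chromosome 12, 25095735 to 25096558) fold enrichments of 10.50, 9.19 and 9.35 in WT PRO stood above 6.92, 7.36 and 6.80 in WT DIFF. The p27KO values of 12.14 and 10.56 at PRO likewise stood above 7.91 and 7.66 at DIFF. The groups did not overlap, yet the rank changes of -0.21 ± 0.20 in WT (limma, adjusted p = 0.499) and -0.42 ± 0.24 in p27KO (adjusted p = 0.317) did not pass the test. Id4 (chromosome 13, 48260583 to 48262150), whose protein also binds the other Id proteins, had 10.82, 12 and 12.12 in WT PRO, 12.10, 11.81 and 14.19 in WT DIFF, 13.01 and 13.24 in p27KO PRO and 13.54 and 16.54 in p27KO DIFF. The groups overlapped in WT and not in p27KO, and the changes were 0.46 ± 0.17 (adjusted p = 0.0881) and 0.43 ± 0.21 (adjusted p = 0.233).

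Of the 82 tested regions, 14 were called between DIFF and PRO in WT. At DIFF 9 of them were lower and 5 higher. Over all 70627 tested regions 19.2% were called, 10.1% lower and 9.15% higher, so the share of members called, 17.1%, was close to the background. In p27KO 8 regions were called, 6 lower and 2 higher, or 9.76% of the members, where 12.3% of all regions were called, 6.48% lower and 5.83% higher. The median change of the members was 0.086 in WT and 0.033 in p27KO, beside 0.034 and 0.042 over all tested regions. By gene, Id3 had 5 of 12 tested regions called in WT, Tcf4 4 of 24, Tcf3 and Id2 2 each of 11 and 8, Id1 1 of 12, and Tcf12 and Id4 none of 12 and 3. A region with a peak at PRO alone or at DIFF alone passed the filter of 5 libraries only through the condition where it was high and so had to differ, and its p is no independent support. Restricted to the 50 regions with a peak in all 10 libraries, 4 were called in WT and 2 in p27KO, beside 12.9% and 6.33% of all such regions. On log2 fold enrichment 3 and 3 of the 50 were called, beside 6.75% and 5.65%.

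Most calls lay away from start sites. With the summit more than 3 kb from any start of a protein-coding gene, 11 of 49 member regions were called in WT and 7 in p27KO, beside 23.5% and 15.3% of all such regions. Within 3 kb, 3 of 33 were called in WT and 1 in p27KO, beside 8.67% and 4.9%.

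Around Id3 the called regions changed in opposite directions within 1 neighbourhood. Upstream, regions 38.5, 32.8 and 26.3 kb from the gene start were lower at DIFF in WT, and a region 8.3 kb from it was higher. A region 42.0 kb downstream was also lower. Id3 had 5 of 12 tested regions called in WT and 2 in p27KO, and Tcf4 4 of 24 in each. Over all tested regions 19.2% were called in WT and 12.3% in p27KO. The Id3 regions 32.8 and 26.3 kb upstream and 42.0 kb downstream had peaks at PRO alone, so the filter made them differ.

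The region 26.3 kb upstream of Id3 (chromosome 4, 136117020 to 136117512, intergenic, with Id3 the nearest start) had fold enrichments of 11.04, 9.30 and 7.50 in WT PRO and no peak in 3 of 3 WT DIFF libraries. In p27KO they were 9.23 and 9.71 at PRO, and again no peak was called in either DIFF library. The normal score fell by 1.95 ± 0.23 in WT (limma, adjusted p = 0.000249) and by 1.92 ± 0.28 in p27KO (adjusted p = 0.00152).

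The region 32.8 kb upstream (136110540 to 136111046) had 10.20, 4.76 and 6.35 in WT PRO, 8.86 and 7.87 in p27KO PRO and no peak in any of the 5 DIFF libraries. Its changes were -1.46 ± 0.29 (limma, adjusted p = 0.00551) and -1.74 ± 0.36 (adjusted p = 0.00993). Leaving out p27KO PRO replicate 1, p27KO PRO replicate 2 or p27KO DIFF replicate 2 ended the call in p27KO, with adjusted p of up to 0.0636. The windows of both regions, printed above, hold an AP-1 match and an E-box.

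The region 38.5 kb upstream (136104512 to 136105393) kept a peak in all 10 libraries and a lower one at DIFF. Fold enrichments were 10.23, 10.34 and 9.82 in WT PRO and 4.55, 3.93 and 5.08 in WT DIFF, with a change of -0.96 ± 0.17 (limma, adjusted p = 0.00221). In p27KO, 8.91 and 9.52 at PRO stood above 4.33 and 5.96 at DIFF, and the change of -0.68 ± 0.20 just missed the threshold (adjusted p = 0.0504). Its p27KO change was called under 7 of the alternative settings.

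The region 8.3 kb upstream (136134313 to 136135851) went the other way. Fold enrichments were 6.31, 6.57 and 6.46 in WT PRO and 8.07, 9.02 and 11.34 in WT DIFF, a change of 0.86 ± 0.18 (limma, adjusted p = 0.00658). In p27KO they were 7.94 and 6.61 at PRO and 10.56 and 9.82 at DIFF, with no overlap, and the change of 0.66 ± 0.22 was not called (adjusted p = 0.0764). Its window, printed above, holds the GGCGCC core and no E-box or AP-1 match.

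The region 42.0 kb downstream of the Id3 start (136185448 to 136185659) lies in an intron of E2f2, the gene of a cell cycle transcription factor, and is nearer to an E2f2 start. It had 7.20, 4.99 and 3.66 in WT PRO, 3.83 and 5.14 in p27KO PRO and no peak in any DIFF library. The change was called in WT (-0.99 ± 0.29, limma, adjusted p = 0.0348) and not in p27KO (-0.72 ± 0.36, adjusted p = 0.233). Without WT PRO replicate 1 or 2 or WT DIFF replicate 1 or 3, or ranked by −log10 p, it lost the call, with an adjusted p of up to 0.123.

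**Figure D2:**
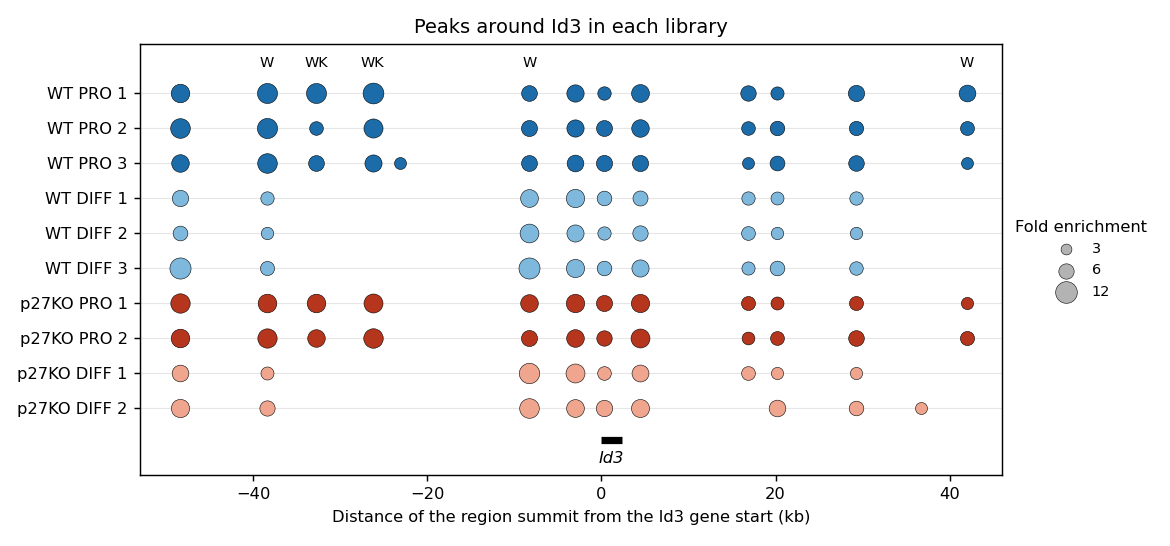
Peaks around Id3, 1 row per library, against the distance of the region summit from the gene start in kb. The area of a point is proportional to fold enrichment, the black bar is the gene body, and W and K mark regions called for DIFF minus PRO in WT and p27KO. Points 32.8 and 26.3 kb upstream are present in the 5 PRO rows and absent from the 5 DIFF rows.

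Id2 had 1 called region that was higher at DIFF and 1 that was lower. A region 13.7 kb downstream of the gene start (chromosome 12, 25083043 to 25083676, intergenic) had no peak in 5 of 5 PRO libraries. At DIFF fold enrichments were 6.07, 3.70 and 6.14 in WT and 4.08 and 4.26 in p27KO. Having peaks at DIFF alone, it passed the filter only through that condition and had to be higher, so its p is no independent support. The change was 1.68 ± 0.20 in WT (limma, adjusted p = 0.000267) and 1.34 ± 0.24 in p27KO (adjusted p = 0.00482). With the same number of top peaks taken from each list the p27KO change was 0.69 and was not called (adjusted p = 0.1).

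A region 22.4 kb upstream of Id2 (25119299 to 25119660) had 4.99, 5.44 and 4.64 in WT PRO and 5.27 and 5.39 in p27KO PRO, and a single DIFF peak of 3.17, in WT DIFF replicate 3. Both changes were called, at -0.78 ± 0.16 in WT (limma, adjusted p = 0.00672) and -1.06 ± 0.20 in p27KO (adjusted p = 0.00594). At Id1, a region 3.0 kb downstream of the gene start (chromosome 2, 152739034 to 152739648) had peaks of 2.54, 3.44 and 3.40 in WT DIFF and 1 peak, of 2.07, in WT PRO. In p27KO it had 3.09 in 1 PRO library and 3.44 and 2.79 at DIFF. The change was 0.85 ± 0.21 in WT (adjusted p = 0.0176) and 0.73 ± 0.26 in p27KO (adjusted p = 0.1), and leaving out WT PRO replicate 1 or 3 or WT DIFF replicate 1 or 2 ended the WT call, with an adjusted p of up to 0.0652.

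**Figure D3:**
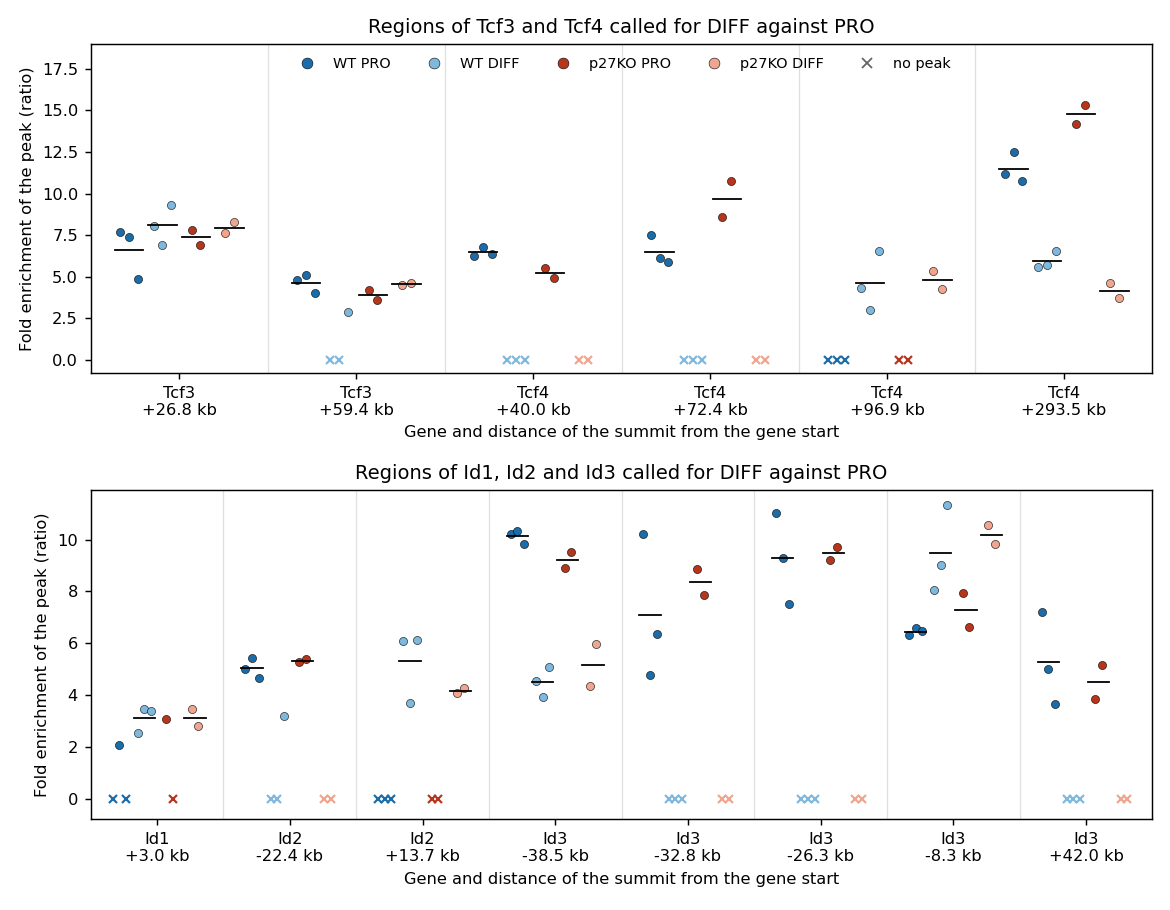
Fold enrichment (ratio) in each library of the 14 regions called in WT or p27KO, labelled by gene and signed distance of the summit from the gene start in kb. Points are libraries, bars are group means where every library has a peak, and crosses at 0 mark libraries without a peak.

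Tcf4 had 4 called regions, all called in both genotypes and all in its gene body (chromosome 18, 69343356 to 69689079). Those 40.0, 72.4 and 96.9 kb from the gene start had peaks at PRO alone or at DIFF alone. The filter therefore made them differ, in the same direction in both genotypes, and their p is no independent support. The remaining called region spans a coding exon 293.5 kb from the gene start (69636428 to 69637379). Fold enrichments were 11.17, 12.48 and 10.73 in WT PRO, 5.57, 5.68 and 6.56 in WT DIFF, 14.20 and 15.35 in p27KO PRO and 4.59 and 3.69 in p27KO DIFF. All 10 libraries had a peak, and DIFF lay below PRO without overlap. The changes were -0.78 ± 0.21 in WT (limma, adjusted p = 0.0216) and -1.92 ± 0.25 in p27KO (adjusted p = 0.000978). The WT call was lost without WT PRO replicate 2, WT DIFF replicate 1 or WT DIFF replicate 3, with an adjusted p of up to 0.0747.

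An intronic region 72.4 kb from the gene start (69415547 to 69416160) lies 109 bp from an internal Tcf4 start site. It had 7.48, 6.12 and 5.86 in WT PRO, 8.62 and 10.78 in p27KO PRO and no peak in any DIFF library. The changes were -1.39 ± 0.22 (limma, adjusted p = 0.00153) and -1.96 ± 0.27 (adjusted p = 0.00136). The intronic region 40.0 kb from the gene start (69383046 to 69384192) had 6.22, 6.80 and 6.35 in WT PRO, 5.51 and 4.90 in p27KO PRO and none at DIFF.

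That last region changed by -1.39 ± 0.21 in WT (limma, adjusted p = 0.000983) and by -1.01 ± 0.25 in p27KO (adjusted p = 0.0245), where leaving out any of the 4 p27KO libraries ended the call, with an adjusted p of up to 0.127. In the opposite direction, an intronic region 96.9 kb from the gene start (69440186 to 69440606) had no peak at PRO and 4.30, 3.01 and 6.56 in WT DIFF and 5.35 and 4.26 in p27KO DIFF. It changed by 1.46 ± 0.22 in WT (adjusted p = 0.00109) and 1.55 ± 0.27 in p27KO (adjusted p = 0.0041). With the same number of top peaks per list its p27KO change was 0.95 and was not called (adjusted p = 0.0522). Each of these 4 windows held 1 AP-1 match and no match to the other motifs.

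The annotated start sites of Tcf4 number 58, and many transcripts begin inside the gene. Besides the region at 72.4 kb, regions within 500 bp of a start and with a peak in 10 of 10 libraries lay 1.0, 2.9, 157.9, 178.1, 219.5 and 250.0 kb from the gene start, and none was called. That at 178.1 kb (69521192 to 69521886), which stands for Tcf4 among the start-site regions plotted by library, had 6.53, 8.24 and 4.16 in WT PRO and 6.28, 6.27 and 8.06 in WT DIFF. Its p27KO values were 7.99 and 7.03 at PRO and 9.24 and 8.17 at DIFF, and its changes were 0.48 ± 0.24 (limma, adjusted p = 0.188) and 0.38 ± 0.29 (adjusted p = 0.463). The region whose summit lies nearest to any Tcf4 start, 3 bp away, had a peak in 3 of 10 libraries and was not tested.

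**Figure D4:**
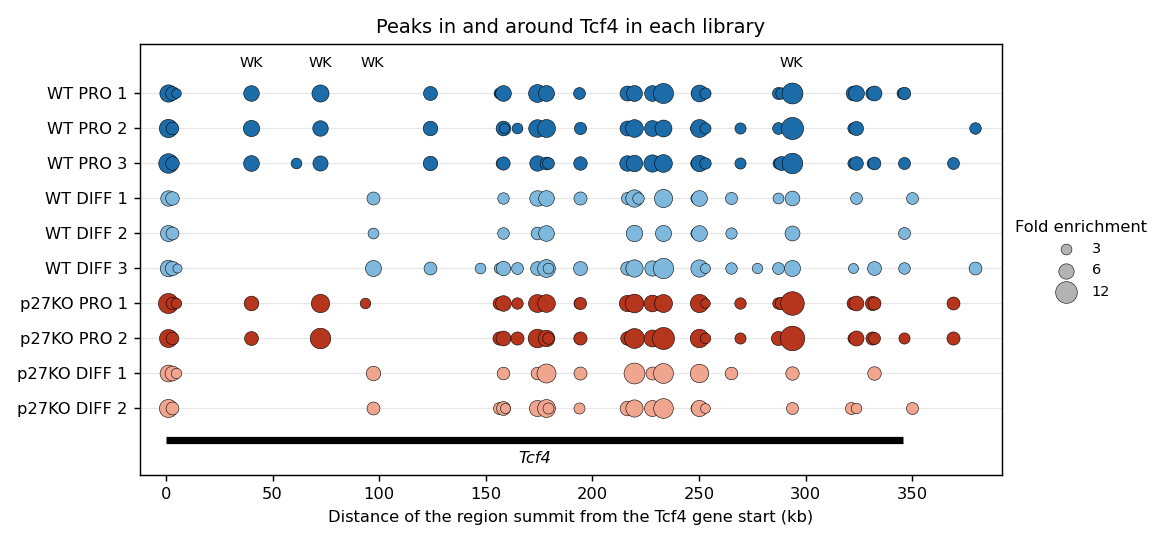
Peaks in and around Tcf4, 1 row per library, against the distance of the region summit from the gene start in kb. Point area is proportional to fold enrichment, the black bar is the gene body, and W and K mark calls in WT and p27KO. The points 40.0 and 72.4 kb from the start are in PRO rows and those at 96.9 kb in DIFF rows.

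Tcf3 had 2 calls in WT, both nearer to another gene. A region 59.4 kb downstream of the Tcf3 start (chromosome 10, 80374201 to 80374373), nearest to Mex3d, had 4.81, 5.09 and 3.99 in WT PRO and a single peak of 2.86 in WT DIFF. That single peak came from WT DIFF replicate 3, the longest list of its group. In p27KO the region had 4.22 and 3.62 at PRO and 4.48 and 4.59 at DIFF, so the directions differed. The changes were -0.69 ± 0.17 in WT (limma, adjusted p = 0.0176), a call lost without WT PRO replicate 1 or 2 or with the same number of top peaks per list (adjusted p of up to 0.0657), and 0.55 ± 0.21 in p27KO (adjusted p = 0.124). The other was at the start site of Uqcr11, a respiratory chain gene, with a change of 0.62 ± 0.19 (adjusted p = 0.0472) that was lost when any library other than WT PRO replicate 1 was left out, with the replicate block, on log2 fold enrichment, with the compared groups alone and with regions in at least 2 libraries, with an adjusted p of up to 0.187.

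Tcf12 and Id4 had no called region, although they held the most open ones. Chosen after their values were seen, an intronic region 152.0 kb from the Tcf12 start (chromosome 9, 71959356 to 71960257) lay between percentiles 83.5 and 99.7 of each list, and a region 33.3 kb upstream of Id4 (chromosome 13, 48227727 to 48228525), within a non-coding gene, between 89.3 and 99.3. Fold enrichments at the former were 18.45, 18.75 and 19.63 in WT PRO and 13.49, 9.49 and 17.97 in WT DIFF, without overlap, and the change of -0.92 ± 0.36 was not called (limma, adjusted p = 0.101). In p27KO they were 17.1 and 20.36 at PRO and 10.96 and 19.22 at DIFF, which overlapped. Those at the latter were 17.41, 17.89 and 14.70 in WT PRO and 10.91, 13.48 and 16.72 in WT DIFF, and overlapped. In p27KO they were 18.28 and 18.25 at PRO and 13.88 and 16.83 at DIFF, without overlap, and neither the WT change of -0.46 ± 0.24 (adjusted p = 0.21) nor the p27KO change of -0.52 ± 0.29 (adjusted p = 0.305) was called.

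Presence alone gave a second view. A region was counted as closed in a genotype when a peak was listed in every PRO library and absent from every DIFF library, and as opened in the reverse case. In WT 7 of 113 member regions were closed and 3 opened, where 4.32% and 1.86% of all 99231 regions seen in 2 or more libraries were. In p27KO 16 were closed and 2 opened, beside 10.9% and 3.32%. With 2 libraries per condition in p27KO and 3 in WT, the p27KO rule is easier to meet, so the genotypes' counts cannot be compared. Without WT DIFF replicate 3 the regions closed in WT rose to 15, without WT DIFF replicate 2 those opened in WT to 5, and without p27KO DIFF replicate 2 those closed and opened in p27KO to 25 and 6. With the same number of top peaks taken from each list, 8 were closed and 4 opened in p27KO.

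Closed in both genotypes were 5 regions, at Id3 32.8 and 26.3 kb upstream and 42.0 kb downstream and at Tcf4 40.0 and 72.4 kb from the start, beside 2.61% of all regions. Opened in both were the Id2 region 13.7 kb downstream and the Tcf4 region at 96.9 kb, beside 0.959%. An AP-1 match was found in all 5 windows closed in both genotypes, beside 30.1% of the 2585 such windows over all regions, and in 1 of the 2 opened in both, beside 4.62% of 952. Among the 9 members lower in WT, 6 held one, beside 24.6% of the 7103 windows lower in WT over all regions, and 3 held an E-box of either form, beside 42.3%.

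The effect of genotype was then examined. No member region was called for the interaction, the difference between the DIFF minus PRO changes of p27KO and WT, and neither was any of all 70627 regions (0.0%). No member was called between genotypes at PRO, where 0.034% of all regions were, or at DIFF, where 0.0156% were. At an unadjusted p under 0.05 limma gave 3, 4 and 5 members, or 3.66%, 4.88% and 6.1%, beside 3.91%, 5.53% and 4.91% of all regions. The lowest adjusted p among members was 1.0 for the interaction, 0.492 at PRO and 0.566 at DIFF.

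The 3 regions with the lowest interaction p were the Tcf3 region near Mex3d (1.24 ± 0.27, limma, unadjusted p = 0.000845), the coding exon region of Tcf4 (-1.14 ± 0.33, unadjusted p = 0.00477) and an intronic region 15.1 kb into Tcf3 (0.78 ± 0.32, unadjusted p = 0.0314). Both Tcf3 regions lacked a peak in WT DIFF replicates 1 and 2 and had one in WT DIFF replicate 3 and in both p27KO DIFF libraries. The lists of WT DIFF replicates 1 and 2 were the shortest, with 61783 and 57534 peaks, against 88738 in replicate 3. Those of p27KO DIFF held 67589 and 73220. The part of list length in these differences was not tested. The lowest p between genotypes at PRO belonged to a region 28.4 kb upstream of Id1, in H13, with a peak in 4 of 4 p27KO and 1 of 6 WT libraries. Its p27KO minus WT difference was 1.18 ± 0.29 at PRO (adjusted p = 0.492) and 1.00 ± 0.29 at DIFF (adjusted p = 0.826).

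Across the 82 regions the changes in WT and p27KO, which share no library, had a Pearson r of 0.823, beside 0.802 across all 70627 tested regions. The sign was shared by 63 of the 82 (76.8%), beside 76.0% of all tested regions. Regions are not replicates, so no test is attached. The filter counted libraries of both genotypes together, so regions with a peak at PRO alone or DIFF alone had to share their direction. Their part in r and in the shared signs is no support.

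**Figure D5:**
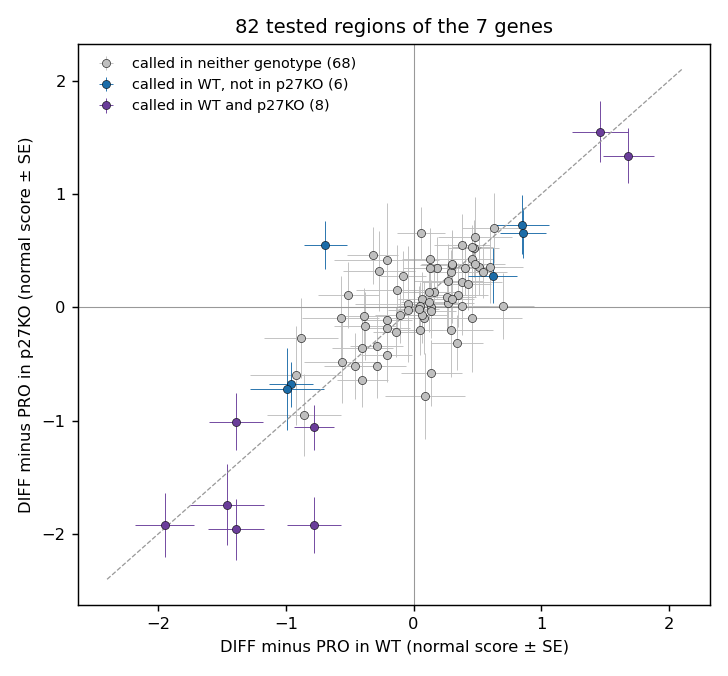
Change at DIFF in p27KO against that in WT for the 82 tested regions, in normal scores with bars of 1 SE, coloured by call, with the line of equal change dashed. The 8 regions called in both genotypes share their direction, and the Tcf3 region near Mex3d, called in WT, lies on the other side of 0 in p27KO. Of the 8, those with a peak at PRO alone or DIFF alone had to share their direction, since the filter needed 5 libraries.

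Partners and regulators of the 7 genes were read at their promoters, as the tested region nearest a start site. Of 39 class II helix-loop-helix genes, which encode the dimer partners of E proteins, 20 had a promoter peak in all 10 libraries and 6 in none, and 25 were tested. In WT 2 were lower and 0 higher, beside 2.35% and 2.82% of all promoters. In p27KO 1 was lower and 0 higher, beside 1.11% and 1.32%. The median change was -0.114 in WT and -0.008 in p27KO, beside 0.120 and 0.137 over all promoters. Neurod4, a proneural gene, had 12.88, 13.04 and 13.43 in WT PRO, 7.34, 7.64 and 11.38 in WT DIFF, 17.07 and 17.27 in p27KO PRO and 9.25 and 11.93 in p27KO DIFF. PRO lay above DIFF in both, with changes of -0.55 ± 0.17 (limma, adjusted p = 0.0455) and -1.04 ± 0.21 (adjusted p = 0.00923). Mesp2 fell by 0.97 ± 0.23 in WT (adjusted p = 0.0119) and had -0.09 ± 0.28 in p27KO (adjusted p = 0.882). Olig2, the oligodendrocyte lineage factor, had 0.45 ± 0.17 in WT (adjusted p = 0.0965).

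Of 16 genes for cofactors of E proteins and for repressors that bind E-boxes, 15 had a promoter peak in all 10 libraries and 15 were tested, with 0 called in either genotype by limma. Over all promoters 2.35% were called lower and 2.82% higher in WT, and 1.11% and 1.32% in p27KO. The coactivator genes Ep300 and Crebbp had WT changes of 0.56 ± 0.21 (adjusted p = 0.0966) and 0.36 ± 0.19 (adjusted p = 0.224). Of 31 BMP and SMAD genes, 27 had a promoter peak in all 10 libraries and 28 were tested. The single call was Smad7, an inhibitory SMAD, lower in WT (-1.01 ± 0.25, adjusted p = 0.0143) and in p27KO (-1.17 ± 0.30, adjusted p = 0.0273). The region nearest its start had 4.97, 4.48 and 6.25 in WT PRO, 5.39 and 6.08 in p27KO PRO and no peak at DIFF, while another within 3 kb kept its gene among those with a promoter peak in every library. With peaks at PRO alone, the region nearest the Smad7 start had to be lower at DIFF, and its p is no independent support. Smad1 and Smad5, which carry the BMP signal, were not called, with 0.37 ± 0.17 (adjusted p = 0.162) and 0.45 ± 0.18 (adjusted p = 0.0996) in WT. In p27KO they had 0.35 ± 0.21 (adjusted p = 0.326) and 0.20 ± 0.22 (adjusted p = 0.61). The median change of the 28 tested genes was 0.15 in WT and 0.202 in p27KO, beside 0.120 and 0.137 over all promoters.

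For the Tcf4 region at 72.4 kb, the promoters with the most similar normal scores over the 10 libraries, among 15240 compared, were those of Pecam1 (Pearson r = 0.994), Prss22 (0.993), 1700020N01Rik (0.992), C1qtnf2 (0.990) and Mpp4 (0.990). Each had a peak in 5 of 5 PRO and 0 of 5 DIFF libraries, the pattern that dominates the measure. Pecam1 is an endothelial marker, with any peak within 3 kb of a start in 8 of 10 libraries, and of 4 endothelial markers 2 to 3 had a promoter peak in WT PRO libraries, 1 to 2 in WT DIFF, 3 in p27KO PRO and 2 in p27KO DIFF. Cldn5 and Cdh5 had one in 2 of 10 libraries each. The part of endothelial cells in these values was not tested.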

How the data were processed

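ATAC-seq peak lists of 10 libraries were analysed. The authors trimmed reads with cutadapt and Trimmomatic, checked them with FastQC and MultiQC, aligned them to GRCm38 with Bowtie2 allowing dovetailed pairs, flagged duplicates with Picard, and ran MACS2 on each library for narrow peaks without a model at an FDR of 0.05. Versions are not given in the sources used here. The deposited lists hold, per peak, a fold enrichment (a ratio), a −log10 p and a −log10 q, and the lowest deposited −log10 q was 1.3. The authors' read-based test needs alignments and was not used here. Read depth was therefore unknown, and list length was the available measure of it.

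Peaks overlapping by 1 bp were merged into 137454 regions, and the 70627 listed in 5 or more libraries were tested. Fold enrichments were ranked within lists, turned into normal scores and fitted with limma 3.58.1 (R 4.3.3), with 4 group means over all 10 libraries and Benjamini-Hochberg adjustment over all tested regions at 0.05. The procedure was run on simulated normal values without absent peaks tied at the lowest rank, so that run does not cover such ties. Genes followed GENCODE M21, and a region was given to a gene by distance alone. Tables were handled with python 3.11.15, pandas 2.3.3 and scipy 1.17.1. The regions named were those called in WT or p27KO, the start-site regions of the 7 genes and, for the genotype contrasts, those with the lowest p. Any other was chosen after its values were seen. The members, gene lists and motifs were chosen with earlier results of these data known. The p-values measure the spread between these cultures. Alternatives changed the ranking value, the filters, the overlap, the distance, the libraries and the model.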

Additional observations from a re-analysis of the deposited data

How the results depend on the processing

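The 14 regions called in WT became 4 when a peak was required in all 10 libraries, 3 on log2 fold enrichment, 7 with the summit within 10 kb of the gene body and 4 within the gene body, where fewer regions were tested in each case. The 8 called in p27KO became 2, 3, 4 and 4. Leaving out 1 library gave 10 to 13 in WT and 6 to 10 in p27KO. Counts for the interaction and for genotype at PRO and at DIFF were 0 under every alternative run. Regions closed in WT numbered 3 within 10 kb, 2 in the gene body and 7 to 15 without 1 library, and those opened in WT 3 to 5 without 1 library. Regions closed in p27KO numbered 8 with the same number of top peaks per list, 7 within 10 kb, 7 in the gene body and 19 to 25 without 1 library, and those opened 4, 1, 1 and 3 to 6. Where libraries or peaks rather than regions were left out, the cause was not tested.

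Small changes at start sites, none of them called, turned sign. The Tcf12 change in WT was -0.07 on log2 fold enrichment and -0.06 to 0.16 without 1 library. At Id1 it was -0.05 with peaks in all 10 libraries, -0.09 on log2 and -0.04 to 0.12 without 1 library in WT, and -0.11, -0.28 and -0.15 to 0.17 in p27KO. At Id3 it was -0.05 on log2 and -0.11 to 0.28 without 1 library in WT, and -0.06 with peaks in all 10 libraries, -0.23 on log2 and -0.09 to 0.19 without 1 library in p27KO. Of 258 alternative values for the 14 regions called in WT, 229 kept the call and none turned sign, and in p27KO 137 of 146 for 8 regions. The filter set the direction of regions with a peak at PRO alone or DIFF alone. Their part in these counts is no support.

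Deviations of WT PRO and DIFF libraries with the same replicate number had r of 0.0575, 0.0647 and 0.0328, and those with different numbers -0.0508 to -0.00477. In p27KO the 2 deviations of a group mirror each other, and r was -0.141 for the same number and 0.141 for different ones. These values cannot settle whether the numbers were pairs, and they were not taken as pairs. With the replicate block 15 regions were called in WT, 8 in p27KO and 0 for the interaction and for genotype. The Tcf3 region at the Uqcr11 start lost its WT call under it (adjusted p = 0.0509). With the p27KO numbers crossed, a choice made after seeing the data, the replicate block gave 15, 8 and 0. Depth limits the absence of a peak, since read counts were not part of the lists.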
